A study of Macaca fascicularis with 22 samples.

Results

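Endothelial cells line the blood vessels, and the genes described here are those commonly used to tell them from other cells. Of 10 human RefSeq accession numbers listed, those of PECAM1 (NM_000442), VWF (NM_000552), CDH5 (NM_001795), KDR (NM_002253), FLT1 (NM_002019), TEK (NM_000459), TIE1 (NM_005424) and ROBO4 (NM_019055), 8 in all, were found among the 19376 accession numbers on the array, each with 1 probe. Those of NOS3 and ENG were not among them, and these genes were not analysed here. The RNA came from cynomolgus macaque (Macaca fascicularis) neonates and was read in 1 colour on 22 Agilent arrays made for the rhesus macaque, so the probes were designed against the genome of a related species. The lower birth weight (LBW) group held neonates between the 5th and the 25th birth weight centile, and the average birth weight (ABW) group those between the 50th and the 75th. By the sample labels there were 4 LBW and 4 ABW arrays of skeletal muscle, 4 and 4 of umbilical cord, and 3 and 3 of liver. The study's methods give a single sire for the pregnancies, cords collected after birth, and liver and muscle (biceps femoris) taken in the first days of life, while the labels place all tissues at birth. As the methods describe it, liver and muscle came from 4 selected neonates in each group, so arrays of these tissues share animals. Whether the cords on the arrays came from the same neonates is not stated there. Which arrays share an animal is stated in neither source. Arrays were fitted as independent, and the errors of contrasts between tissue labels, of means over labels and of interactions leave that sharing out.

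The 8 genes fall into 4 roles. VEGF receptors pass on the signal for vessels to grow: KDR (VEGF receptor 2) is the main signalling receptor, and FLT1 (VEGF receptor 1) binds VEGF tightly and can act as a decoy. TEK (Tie2) is the receptor for the angiopoietins, which steady or loosen vessels, and TIE1 is its partner receptor. PECAM1 and CDH5 (VE-cadherin) are adhesion proteins of the contacts between endothelial cells, and PECAM1 is also carried by platelets and leukocytes. VWF, the von Willebrand factor stored by endothelial cells and by megakaryocytes and platelets, tethers platelets to the vessel wall, and ROBO4 is a guidance receptor that stabilises vessels. Vessels differ between organs: liver sinusoids have a fenestrated lining low in several general markers, whereas the umbilical vessels are large and muscular.

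Levels are given as log2 of a probe's signal relative to the 75th percentile of its array, so that 0 is that percentile. The 75th percentile itself lay between 315.5 and 2390 signal units over the 22 arrays, and 14596 to 17889 of 20217 probes per array were well above background. All 8 member probes were well above background on 22 of 22 arrays and passed the filter on low signals, which kept 17117 probes. Signals before scaling ran from 901.6 to 76992 for VWF, from 171.6 to 4423.2 for ROBO4 and from 108.2 to 3606.6 for PECAM1. They were lower for KDR (47.9 to 1058.9), TEK (21.1 to 413.8), TIE1 (46.1 to 314.1) and CDH5 (51.9 to 299.1). FLT1 was the dimmest, at 8.8 to 84.6 signal units over a median local background of 32.0. The 2 spots of a probe differed by a median of 0.04 on the log2 scale for PECAM1, CDH5 and KDR and of 0.11 for FLT1, TEK and TIE1. On single arrays the spots differed by up to 0.95 for FLT1 and 0.56 for TIE1, so these probes carried more measurement error.

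The tissue labels and the marker genes of 2 tissues parted. All 10 hepatocyte markers tested were well above background on 8 of 8 cord-labelled arrays. On the 6 liver-labelled arrays SERPINA1, TTR and F2 were so on every array, at lower levels, APOH on 1 and the other 6 on none. The log2 of their summed level was 9.26 to 10.42 on the 8 cord-labelled arrays and -1.50 to -0.22 on the 6 labelled liver. All 6 stroma and matrix genes were lower on the cord-labelled arrays, with a median difference of -5.68. The 6 pericyte and vascular smooth muscle genes summed to 9.03 to 9.27 on the liver-labelled arrays and to 2.18 to 3.73 on the cord-labelled arrays. The arrays are therefore called by their label throughout, and no direction below is a statement on liver or umbilical cord beyond that label. The skeletal muscle arrays held 5 of 5 striated muscle markers well above background. The arrays lay on 6 slides. Slide 1 held all skeletal muscle ABW arrays and slide 2 all skeletal muscle LBW arrays, and there the slide cannot be told apart from birth weight. These slides held no other arrays. In contrasts of skeletal muscle with the other labels, the slide therefore cannot be told apart from the tissue label either. The ABW cord-labelled arrays lay on slide 4 (replicates 1 and 2) and slide 6 (replicates 3 and 4), the latter scanned on another day and read with another software version. The LBW arrays with that label were all on slide 5. No slide held cord-labelled arrays of both groups, so there too the slide cannot be told apart from birth weight. The liver-labelled ABW arrays and LBW replicate 1 lay on slide 3, and LBW replicates 2 and 3 on slide 4. Slide and birth weight are thus partly mixed under that label.

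The first question was at which level each gene stood under each tissue label. At an adjusted p under 0.05, 7 of the 8 genes were higher on skeletal muscle than on the cord-labelled arrays, and 4 of the 8 were lower on the cord-labelled than on the liver-labelled arrays, where 7 had the lower mean. In these bulk samples a smaller number of endothelial cells and less RNA of a gene per cell cannot be told apart. Large shares of all probes also differed between the labels: limma called 65.3% of probes at an adjusted p under 0.05 between skeletal muscle and the liver-labelled arrays, 64.9% between skeletal muscle and the cord-labelled arrays, and 66.9% between the latter 2. The members' counts of 4, 7 and 4 of 8 stand beside these shares. By direction, 2 members were higher and 2 lower on skeletal muscle than on the liver-labelled arrays (37.1% and 28.1% of all probes), 7 were higher on skeletal muscle than on the cord-labelled arrays (35.8%) and 4 were lower on the cord-labelled than on the liver-labelled arrays (31.3%). Arrays of the labels did not overlap at all for 3, 3 and 4 members in these contrasts, and for 42.5%, 32.2% and 38% of all probes.

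**Figure D1:**
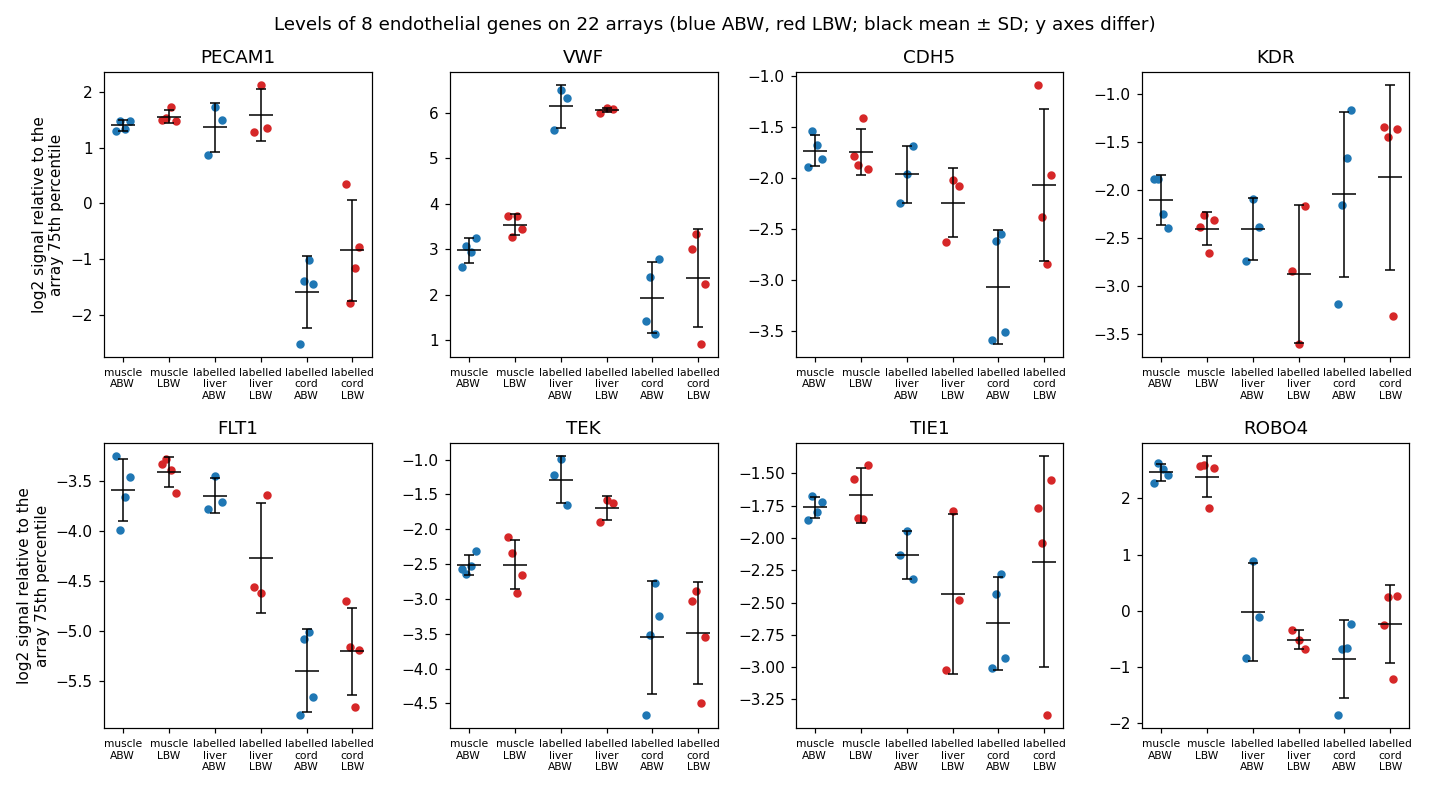
Level of each of the 8 endothelial genes (y axis, log2 signal relative to the array's 75th percentile, with a range of its own in each panel) on 22 arrays in 6 groups; points are arrays, and black marks are the group mean ± SD (n = 3 or 4). VWF and TEK stood highest on the liver-labelled arrays and ROBO4 on skeletal muscle, and the cord-labelled arrays were the most spread for most genes.

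Among the adhesion genes, PECAM1 lay at 1.30, 1.48 and 1.73 (lowest, median and highest of 8) on skeletal muscle and at 0.87, 1.43 and 2.13 (of 6) on the liver-labelled arrays. On the 8 cord-labelled arrays it lay at -2.53, -1.27 and 0.35, below every array of the other labels. Its mean on skeletal muscle was 6.51-fold that on the cord-labelled arrays (log2 difference 2.70, SE 0.26, adjusted p = 1.2e-08). Between skeletal muscle and the liver-labelled arrays the difference was -0.00 with a 95% confidence interval of -0.59 to 0.58. CDH5 was more even. It lay at -1.91, -1.80 and -1.41 on skeletal muscle, at -2.63, -2.04 and -1.69 on the liver-labelled arrays, and at -3.59, -2.58 and -1.08 on the cord-labelled arrays. These ranges overlapped, and of the 3 contrasts skeletal muscle over the cord-labelled arrays passed the threshold (0.83, SE 0.22, adjusted p = 0.00268). The difference between the cord-labelled and the liver-labelled arrays was -0.47 (adjusted p = 0.0919), and it passed without cord-labelled ABW replicate 3 (-0.56) or LBW replicate 1 (-0.63).

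VWF had the widest separation of all members. It lay at 5.62, 6.09 and 6.51 on the liver-labelled arrays, at 2.62, 3.26 and 3.74 on skeletal muscle, and at 0.92, 2.32 and 3.34 on the cord-labelled arrays. Every liver-labelled array was above every other array. Its mean there was 7.19-fold that on skeletal muscle (log2 difference of skeletal muscle minus label liver -2.85, SE 0.32, adjusted p = 1.52e-07) and 15.4-fold that on the cord-labelled arrays. Skeletal muscle and the cord-labelled arrays overlapped, with a 2.14-fold difference (adjusted p = 0.00272). ROBO4 was ordered otherwise, highest on skeletal muscle at 1.84, 2.54 and 2.64. It lay at -0.85, -0.43 and 0.88 on the liver-labelled arrays and at -1.87, -0.47 and 0.25 on the cord-labelled arrays. Skeletal muscle stood 6.48-fold above the former (2.70, SE 0.29, adjusted p = 8.36e-08) and 7.88-fold above the latter (2.98, SE 0.27, adjusted p = 4.43e-09), with no array overlapping. These 2 labels differed by 0.28 in ROBO4 (cord minus liver -0.28, 95% confidence interval -0.89 to 0.32), which did not pass the threshold.

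The 2 VEGF receptors did not share an order. FLT1 was dimmer on the cord-labelled arrays (-5.84, -5.18 and -4.70) than on skeletal muscle (-3.98, -3.42 and -3.25) and on the liver-labelled arrays (-4.62, -3.74 and -3.44), with no overlap with either. Skeletal muscle was 3.50-fold above the cord-labelled arrays (1.81, SE 0.19, adjusted p = 4.09e-08), which were 2.54-fold below the liver-labelled arrays (-1.34, SE 0.20, adjusted p = 7.37e-06). With another background correction (normexp) that last difference was -0.22 and did not pass (adjusted p = 0.332; 1.16e-06 to 0.394 over 33 alternatives). FLT1 differed by 0.46 between skeletal muscle and the liver-labelled arrays (adjusted p = 0.0523), which passed under 10 of 33 alternatives, among them leaving out liver-labelled LBW replicate 3 (0.62). KDR had the highest mean on the cord-labelled arrays, at -3.32, -1.56 and -1.17, against -2.65, -2.29 and -1.89 on skeletal muscle and -3.61, -2.57 and -2.09 on the liver-labelled arrays. None of its 3 contrasts passed the threshold. The nearest was 0.68 between the cord-labelled arrays and liver, with a 95% confidence interval of -0.00 to 1.37 (adjusted p = 0.0718), and it passed under 5 of 33 alternatives, namely normexp, quantile normalization and leaving out cord-labelled ABW replicate 1 (0.87), LBW replicate 3 (0.92) or liver-labelled LBW replicate 3 (0.86).

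The angiopoietin receptor TEK was ordered like VWF. It lay at -1.90, -1.60 and -0.99 on the liver-labelled arrays, at -2.92, -2.54 and -2.11 on skeletal muscle, and at -4.67, -3.38 and -2.77 on the cord-labelled arrays. Neighbours in that order were 2.02-fold apart each (skeletal muscle minus label liver -1.01, SE 0.27, adjusted p = 0.00281, and skeletal muscle minus label cord 1.01, SE 0.25, adjusted p = 0.00144). Its partner TIE1 was highest on skeletal muscle at -1.86, -1.76 and -1.44. It lay at -3.02, -2.23 and -1.79 on the liver-labelled arrays and at -3.37, -2.36 and -1.55 on the cord-labelled arrays. Skeletal muscle was above the cord-labelled arrays (0.70, SE 0.23, adjusted p = 0.0101). Its margin over the liver-labelled arrays sat at the threshold (0.56, SE 0.24, adjusted p = 0.0496) and was past it under 12 of 33 alternatives. Leaving out any 1 of the 8 skeletal muscle arrays, among others, ended that call.

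Several of these values changed with the scaling. When arrays were scaled by their spike-in controls in place of the 75th percentile, the median of all probes for skeletal muscle minus the cord-labelled arrays moved from 0.11 to -1.26. VWF (-0.27), CDH5 (-0.54), TEK (-0.36) and TIE1 (-0.67) were then below 0 in that contrast, and none of these 4 passed. PECAM1 and ROBO4 remained past the threshold, FLT1 did not (0.44), and KDR passed on the other side (-1.67, adjusted p = 0.00825).

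**Figure D2:**
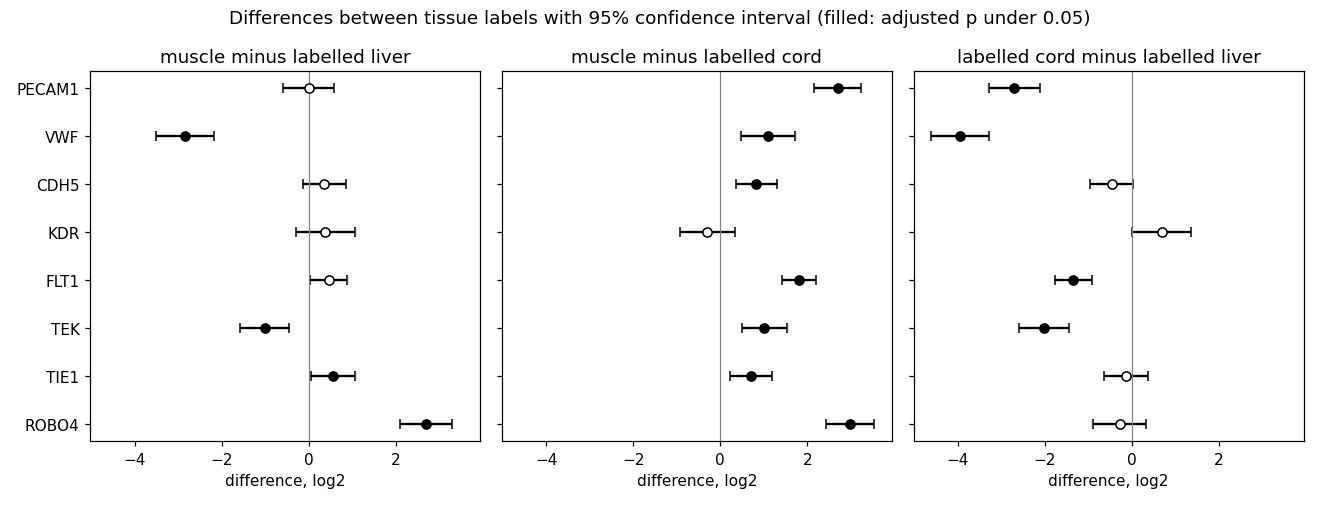
Differences between tissue labels for the 8 genes (x axis, log2; bars are 95% confidence intervals from limma; filled points passed an adjusted p under 0.05). In the middle panel 7 of 8 points are filled and to the right of 0, with KDR alone left of it, and in the right panel PECAM1, VWF, FLT1 and TEK are filled and left of 0.

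Tissue label accounted for unequal shares of the members' spread over the 22 arrays. The share was 88.5% for VWF, 87.3% for ROBO4, 86.4% for PECAM1, 83% for FLT1 and 75.7% for TEK. It was 35.4% for TIE1, 34.3% for CDH5 and 18.4% for KDR, for which 75.1% lay between arrays of the same group. Birth weight within a tissue label took 26% for CDH5 and between 1.4% and 9.83% for the other 7. KDR was thus mostly spread between arrays of 1 group, and VWF between labels.

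The second question was whether LBW and ABW neonates differed in these genes. None of the 8 members passed an adjusted p under 0.05 in limma in any tissue label, where 0% of all probes did so in skeletal muscle, 0% on the liver-labelled arrays and 0.625% on the cord-labelled arrays. At an unadjusted p under 0.05 there was 1 member in skeletal muscle (VWF; 14.7% of all probes), 0 on the liver-labelled arrays (5.99%) and 1 on the cord-labelled arrays (CDH5; 8.94%). The methods' t-test gave 1, 0 and 0 at that level, and 0 in each after adjustment. Requiring a 1.5-fold difference as well left 0 of 8 in skeletal muscle (12.2% of all probes), 0 on the liver-labelled arrays (4.71%) and CDH5 on the cord-labelled arrays (8.93%). Read against these shares, counts of 0 or 1 of 8 are no result about the members.

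**Figure D3:**
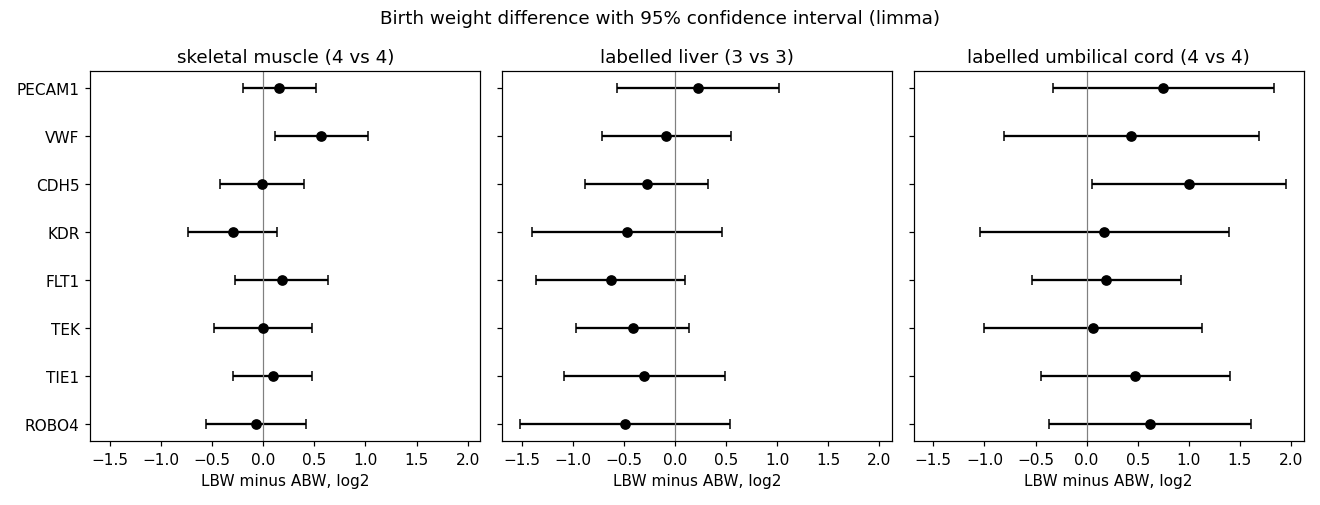
LBW minus ABW for the 8 genes under each tissue label (x axis, log2; points are differences and bars 95% confidence intervals from limma). Each gene's interval is narrowest in skeletal muscle, where VWF lies apart from 0, and on the cord-labelled arrays all 8 points lie above 0 and the interval of CDH5 excludes it narrowly.

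In skeletal muscle the 8 members were close to even, with 5 above 0 and 3 below (difference above 0 in 57.3% of all probes). Their median difference was 0.05, against 0.07 over all probes. With spike-in scaling 1 was above 0 (VWF) and 7 below, with a median of -0.32 against -0.29 over all probes. VWF stood furthest from 0. It lay at 2.62, 3.08, 2.95 and 3.25 on the 4 ABW arrays and at 3.73, 3.27, 3.74 and 3.44 on the 4 LBW arrays. The lowest LBW array was just above the highest ABW array, so the groups did not overlap, as held for 10.5% of all probes. The difference was 0.57, or 1.48-fold (SE 0.20, 95% confidence interval 0.11 to 1.03, adjusted p = 0.237). Across 22 alternatives it ran from 0.21 to 0.66, lowest with spike-in scaling.

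Markers of platelets, which also carry VWF, were measured beside it. All 4 platelet and megakaryocyte genes had a higher LBW mean in skeletal muscle, and the log2 of their summed level ran from -1.57 to -1.17 in ABW and from -0.87 to -0.37 in LBW. Of these 4 genes, 2 to 4 were well above background per ABW array and 3 to 4 per LBW array. ITGA2B, a platelet integrin, differed by 0.89 (SE 0.17, adjusted p = 0.0941) without overlap of the groups, as held for 10.5% of all probes. PPBP and PF4, platelet chemokines, stood at 0.12 and 0.95 with adjusted p of 0.942 and 0.608. The 2 erythroid genes that passed the filter were also higher in LBW muscle, HBB by 1.21 and ALAS2 by 0.77 (adjusted p = 0.336 and 0.693). Of the 3 erythroid genes on the array, 1 to 2 were well above background per skeletal muscle array. The 6 stroma and matrix genes and the 3 leukocyte genes, of which 2 were well above background on each array, had lower LBW means here. Their median differences were -0.99 and -0.72, against 0.73 for the platelet genes. At an unadjusted p under 0.05 (limma) and 1.5-fold, 4 of 6 stroma, 1 of 3 leukocyte and 1 of 4 platelet genes were called (12.2% of all probes). None of these genes passed after adjustment. The part of these cells in the level of VWF was not tested.

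The other members in skeletal muscle had small differences with narrow intervals. PECAM1 differed by 0.16 (95% confidence interval -0.20 to 0.51), FLT1 by 0.18 (-0.27 to 0.64) and TIE1 by 0.09 (-0.29 to 0.48). CDH5 differed by -0.01 (-0.43 to 0.40), TEK by 0.00 (-0.48 to 0.48), ROBO4 by -0.08 (-0.57 to 0.41) and KDR by -0.30 (-0.73 to 0.14). The 7 intervals stayed within 1 log2 unit of 0, and the lower end of that of KDR was the farthest out.

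On the liver-labelled arrays 7 of 8 members had the lower mean in LBW (difference below 0 in 41.5% of all probes), with a median of -0.36 against 0.06 over all probes. FLT1 was the furthest, at -3.78, -3.44 and -3.70 in ABW and -4.55, -4.62 and -3.63 in LBW. LBW replicates 1 and 2 lay below all ABW arrays and replicate 3 among them. The difference of -0.63 (SE 0.30, 95% confidence interval -1.36 to 0.10) had an adjusted p of 0.853. It was -0.95 without LBW replicate 3 and -0.29 with normexp, the ends of its range over 23 alternatives. ROBO4 (-0.49), KDR (-0.47) and TEK (-0.41) followed, then TIE1 (-0.30), CDH5 (-0.28) and VWF (-0.08), and PECAM1 was above 0 at 0.22. All intervals held 0. The members' median was -0.20 without LBW replicate 1, -0.23 with 6 of 8 below 0 without ABW replicate 2, and -0.15 with 6 of 8 below 0 with spike-in scaling, where that of all probes was 0.27. On slide 3, which holds the 3 ABW arrays and LBW replicate 1, all 8 members were below 0, with a median of -0.53. There TIE1 stood at -0.89 and FLT1 at -0.91. The 4 platelet genes had lower means in LBW here as well, PF4 by -1.97 (adjusted p = 0.813), as had the 3 leukocyte genes. Of the latter, 2 to 3 were well above background per LBW array. The part of these cells was not tested.

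On the cord-labelled arrays all 8 members had the higher mean in LBW (difference above 0 in 49.1% of all probes), with a median of 0.46 against -0.01 over all probes. CDH5 was furthest from 0. It lay at -3.59, -2.62, -2.55 and -3.51 in ABW and at -1.08, -2.38, -2.84 and -1.97 in LBW. LBW replicate 3 fell among the ABW arrays, and the other LBW arrays lay above all of them. The difference was 0.998 on the log2 scale (SE 0.43, 95% confidence interval 0.05 to 1.95), with an adjusted p of 0.551. It was 1.04 against the ABW arrays of slide 4 alone and 0.96 against those of slide 6 alone. Across 25 alternatives it ran from 0.67, without LBW replicate 1, to 1.26, without LBW replicate 3.

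PECAM1 differed by 0.75 (95% confidence interval -0.33 to 1.83) and ROBO4 by 0.62 (-0.37 to 1.61). TIE1 stood at 0.48, VWF at 0.44, FLT1 at 0.19, KDR at 0.17 and TEK at 0.06. Their intervals held 0 and were wider than those of the same genes in skeletal muscle. Against the ABW arrays of slide 6 alone TEK stood at -0.48, against 0.60 for those of slide 4, and 6 of 8 members were above 0. Without ABW replicate 1 there were also 6 of 8 above 0, with a median of 0.28, and without LBW replicate 3 all 8, with a median of 0.86. With spike-in scaling 5 of 8 were above 0, where the median of all probes had moved to -0.32. Hepatocyte markers on these arrays were not uniform between the groups: F13B and CP were lower in LBW by -3.81 and -3.72 (adjusted p = 0.00707 and 0.00909), while 3 of 10 had the higher mean in LBW. The 3 leukocyte markers had higher LBW means by 0.07 to 0.62, and the 4 platelet genes lower ones, by -0.25 to -1.09. Per array, 2 to 3 of the 3 leukocyte markers were well above background. The part of other cells in the members' levels was not tested.

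Averaged over the 3 tissue labels, 0 of 8 members passed (limma, adjusted p under 0.05; 0.888% of all probes did), and 0 at an unadjusted p under 0.05 (13.6%). PECAM1 was furthest from 0 at 0.38 (SE 0.22, adjusted p = 0.467). The interaction of birth weight and tissue label was passed by 0 of 8 members and by 1.01% of all probes. At an unadjusted p under 0.05, which 10.1% of all probes met, CDH5 was the 1 member, with an F of 4.23 and an adjusted p of 0.400, so the difference of CDH5 between labels did not hold after adjustment. The opposite directions of most members under the liver and cord labels likewise went with no interaction that passed.

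The members' levels were then compared with each other from array to array. Over the 22 arrays the 28 pairs of members had correlations between -0.24 and 0.88, with a median of 0.52 and 23 above 0. PECAM1 and FLT1 were the closest pair (0.88), then VWF and TEK (0.87), and PECAM1 and KDR the farthest apart (-0.24). After subtracting group means, so that tissue label and birth weight no longer enter, all 28 were above 0, between 0.21 and 0.78, with PECAM1 and CDH5 closest. These are descriptions over arrays that share slides and a scaling factor per array. The cord-labelled arrays stood furthest from their group means, so they weigh most after that subtraction. On skeletal muscle LBW replicate 3 members went both ways, with CDH5 at 0.33 and ROBO4 at -0.55 from the group mean. Correlations within 1 tissue label were not computed. Nor were those between pairs of other probes, so the 28 above 0 have no share of all pairs to stand beside.

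**Figure D4:**
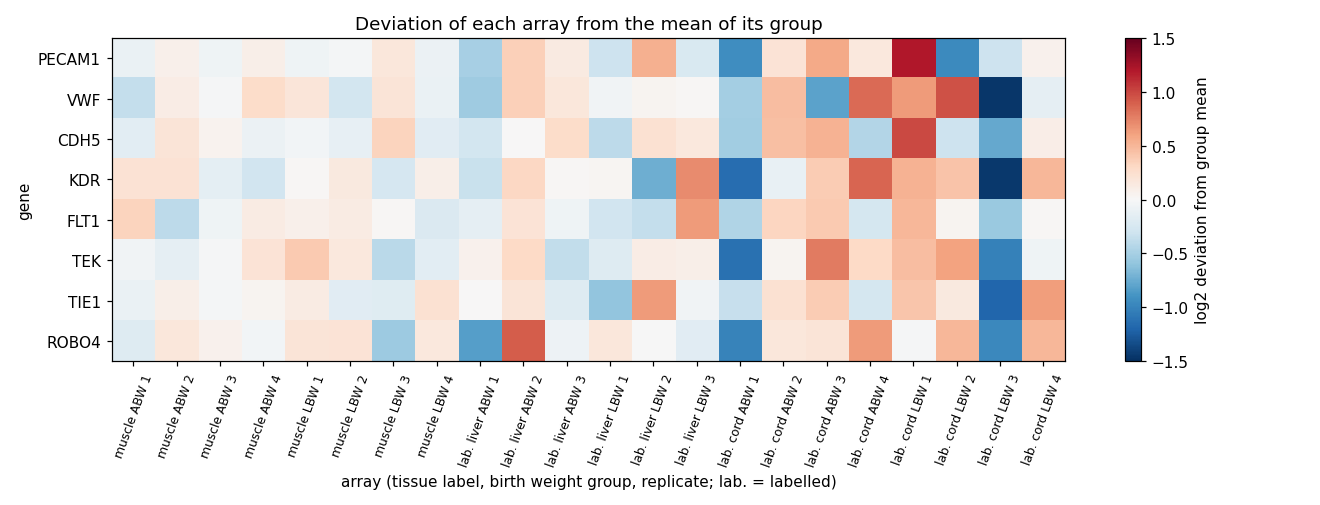
Deviation of each array (x axis) from the mean of its group for each of the 8 genes (y axis), in log2 units by colour. The columns of umbilical cord label ABW replicate 1 and LBW replicate 3 are blue in all 8 rows, and the skeletal muscle columns are pale.

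On the cord-labelled arrays 2 arrays stood low in the whole set. ABW replicate 1 was below its group mean in 8 of 8 members and the lowest of its group in 7, by up to -1.14 for KDR. LBW replicate 3 was likewise below its group mean in 8 of 8 and the lowest in 7, by up to -1.46 for VWF. On LBW replicate 3 the stroma and matrix genes and the pericyte and smooth muscle genes were also at their lowest summed level of the 8 arrays with this label (2.79 and 2.18), and the hepatocyte markers at their highest (10.42). By these sums ABW replicate 1 was the next lowest in the stroma and matrix list (3.20) and in the pericyte list (2.26). It was the next highest in the hepatocyte markers (10.372, against 10.369 on ABW replicate 2). By mean log2 level the pericyte list was again lowest on ABW replicate 1 (-1.84) and LBW replicate 3 (-1.69). The stroma and matrix mean was -0.315 on ABW replicate 1, above -0.47 on ABW replicate 4. The hepatocyte mean was 4.87 on LBW replicate 3, below 5.44 on ABW replicate 2. The part of these genes' cells in the members' levels was not tested. Deviations on skeletal muscle stayed between -0.55 and 0.40.

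The probes most like the members were looked up by their correlation with the members' mean standardised level over 22 arrays. The closest were those for XM_291085 (0.94), NM_153690 (0.91), NM_002405 (0.91), XR_014133 (0.90) and NM_052954 (0.90). After subtracting group means they were NM_020856 (0.90), CN644511 (0.88), NM_144583 (0.87), NM_181711 (0.86) and NM_001198 (0.86). No probe was in both lists.

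The wider vascular genes were read in 8 further lists, whose genes on the array that passed the filter numbered 53. None of these genes passed an adjusted p under 0.05 in limma between LBW and ABW under any tissue label. At an unadjusted p under 0.05 there were 4 in skeletal muscle, 2 on the liver-labelled and 4 on the cord-labelled arrays, and 4, 0 and 2 by the methods' t-test. Of 53 genes, limma's counts are smaller shares than the 14.7%, 5.99% and 8.94% of all probes. Among the ligands and co-receptors of the VEGF and angiopoietin receptors, 7 of 9 genes were on the array. PGF, the ligand of FLT1, differed by 0.58 in skeletal muscle (SE 0.18, adjusted p = 0.181). The ABW arrays lay at -0.45, -0.11, -0.18 and -0.43 and the LBW arrays at 0.32, 0.38, 0.42 and 0.03. These groups did not overlap, as held for 10.5% of all probes. ANGPT1, the activating ligand of TEK, differed by -0.98 on the cord-labelled arrays (SE 0.34, adjusted p = 0.431) and NRP1, a VEGF co-receptor, by -0.70 (adjusted p = 0.557). VEGFB, a further FLT1 ligand, stood at -0.42 there.

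VCAM1, an adhesion molecule that endothelium shows on activation, had a lower LBW mean under all 3 labels, by -0.75 in skeletal muscle (SE 0.24, adjusted p = 0.193), -0.66 on the liver-labelled arrays and -0.77 on the cord-labelled arrays. Averaged over labels it differed by -0.73 (SE 0.22, adjusted p = 0.141). ICAM1, of the same kind, stood at 0.28, -0.62 and -0.30. SELE (E-selectin), which endothelium makes when inflamed, was not well above background on any skeletal muscle array or any liver-labelled array, so no difference is given for them. On the cord-labelled arrays 3 of 4 in each group were well above background, and SELE differed by 0.95 with an SE of 1.68 (adjusted p = 0.894).

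Among the other surface and junction genes MCAM differed by 0.95 on the liver-labelled arrays (SE 0.27, adjusted p = 0.783). ESAM, a junction protein, differed by -1.55 on the cord-labelled arrays (SE 0.52, adjusted p = 0.409), where 2 of 4 LBW arrays were well above background, and by -0.14 with normexp. PLVAP, the diaphragm protein of fenestrated vessels, stood at 0.96 there and EMCN at 0.21 (adjusted p = 0.608 and 0.914). Among the transcription factors SOX7 differed by -0.71 on the liver-labelled arrays (adjusted p = 0.813). TAL1 and GATA2, also blood cell regulators, stood at 0.53 and 0.55 in skeletal muscle (adjusted p = 0.288 and 0.315), and SOX17, an arterial factor, at 0.69 on the cord-labelled arrays.

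The Notch, BMP and ephrin genes lay on both sides of 0, from -0.58 to 0.47 in skeletal muscle, from -0.70 to 0.32 on the liver-labelled and from -0.33 to 0.39 on the cord-labelled arrays. DLL4, the Notch ligand of sprouting vessels, stood at -0.58 in skeletal muscle (adjusted p = 0.352), JAG1 at -0.39, NOTCH1 at 0.47 and NOTCH4 at 0.28. THBD, PLAT, EDN1 and ECE1, of the anticoagulant, fibrinolytic and vasoactive genes, stood at -0.57, -0.64, 0.47 and 0.43 in skeletal muscle, with adjusted p between 0.390 and 0.487. CNN1, a smooth muscle protein, differed by 1.31 on the cord-labelled arrays (SE 0.46, adjusted p = 0.440), while RGS5, TAGLN and PDGFRB of that list stood between -0.11 and 0.45 there.

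**Figure D5:**
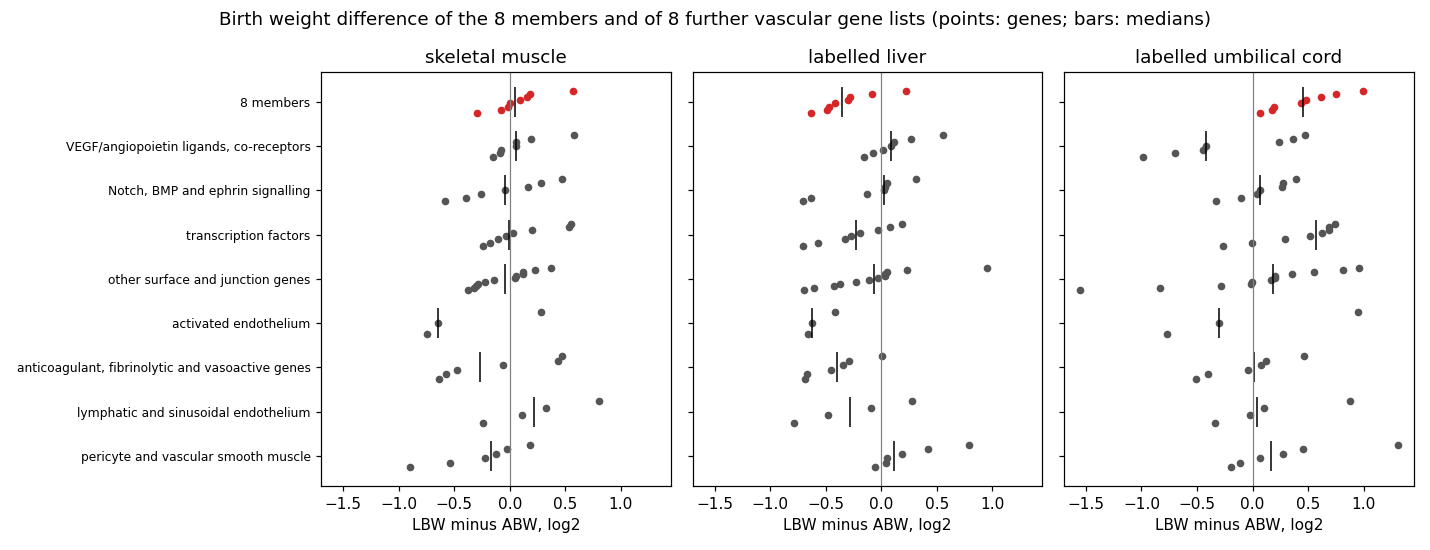
LBW minus ABW (x axis, log2) for the 8 members (red) and for the genes of 8 further vascular lists (grey), by tissue label; points are genes and bars list medians. The members and the transcription factors lie mostly above 0 on the cord-labelled arrays, and no point passed the adjusted threshold.

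Between tissue labels the lists differed more. Their values there were read with the main scaling only, and not under spike-in scaling or the other alternatives. Of 12 other surface and junction genes all 12 were above 0 for skeletal muscle minus the cord-labelled arrays, 10 of them past the threshold (35.8% of all probes were called higher), and of 8 transcription factors 7 were. All 6 anticoagulant, fibrinolytic and vasoactive genes were lower on skeletal muscle than on the liver-labelled arrays and passed (28.1% of all probes were called lower). THBD, the thrombin cofactor of the endothelial surface, was -2.12 there and -4.51 for the cord-labelled arrays minus the liver-labelled arrays (adjusted p = 3.66e-05 and 9.13e-10). VCAM1 went the other way, 3.33 higher on the cord-labelled arrays than on the liver-labelled arrays (SE 0.27, adjusted p = 1.07e-09). STAB2, a scavenger receptor of sinusoidal endothelium, was 5.24 higher (SE 0.42, adjusted p = 6.97e-10). PROX1, a factor of lymphatic endothelium and of hepatocytes, was well above background on 8 of 8 cord-labelled and 1 of 6 liver-labelled arrays, so no difference is given. LYVE1 and FCN3 did not pass in that contrast (-0.95 and -0.93, adjusted p = 0.0582 and 0.0865).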

How the data were processed

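RNA was labelled with Cy3 and hybridized to rhesus macaque arrays. Spot intensity as deposited was background subtracted and detrended by Agilent Feature Extraction without scaling between arrays (per the file headers, version 10.1.1.1 on 20 arrays and 10.5.1.1 on 2). The authors' deposited log2 table, scaled per array and by its values centred within tissues, served as an alternative.

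Both spots of a probe were combined as their mean, and log2 values were centred on each array's 75th percentile. Probes were kept if well above background on 75% or more of the arrays in a group. limma 3.58.1 was run (with statmod 1.5.0; R 4.3.3) within each tissue label and over the 6 groups, adjusting by Benjamini-Hochberg over 17117 probes. Python 3.11.15, numpy 2.4.6, pandas 2.3.3 and matplotlib 3.10.9 made the tables and figures. The fits were tested on simulated data. The p-values measure only the spread between these samples, which may be technical. The highest correlation between arrays of a group was 0.982, and none was counted as a copy.

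All members were named, and from each of 8 further lists up to 4 genes with the smallest unadjusted p for LBW minus ABW. Genes of 7 marker lists of other cells were named after their values were seen. Members, lists and tests were chosen with earlier results of these data known. Symbols of list genes come from general knowledge, and 7 were checked in the study's supplement with no difference. Alternatives covered background, scaling, filter, test, slide, replicate number and each array left out. Leaving out slide 6 and the methods' t-test on the authors' values were added after seeing the data.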

Additional observations from a re-analysis of the deposited data

Results flagged for a closer look

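Among 32 sets of 4 arrays (8 members in 4 groups of 4), 2 held an array far from the other 3, where chance alone gives about 1 in 20. KDR on umbilical cord label LBW replicate 3 was at -3.32, with the nearest array at -1.45 (gap over range 0.951). ROBO4 on skeletal muscle LBW replicate 3 was at 1.84, with the nearest at 2.55 (0.941). The groups of 3 arrays labelled liver were not tested. No member's birth weight difference was found to differ between tissue labels after adjustment.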

How the results depend on the processing

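Over 20 alternative settings and 22 that leave out 1 array, 0 of the members' birth weight differences or interactions passed an adjusted p under 0.05 (limma, or the methods' t-test where that was the setting). The count at an unadjusted p under 0.05 and 1.5-fold was less steady. On the liver-labelled arrays it was 1 with slide as a fixed block and 2 on slide 3 alone, both resting on LBW replicate 1, the 1 LBW array of that slide, which is assumed to vary like the others. On the cord-labelled arrays it was 0 with spike-in scaling, with the methods' t-test on either set of values, against the ABW arrays of slide 4 or slide 6 alone, and with the replicate block. Leaving out 1 array gave 0 to 1 in skeletal muscle, 0 to 1 on the liver-labelled and 0 to 2 on the cord-labelled arrays. Between tissue labels, spike-in scaling gave 3 called members for skeletal muscle against the cord label (57.6% of all probes) and 2 for the cord against the liver label (44.3%), with median differences of -0.31 and -0.21, and a median of -0.30 for skeletal muscle against the liver label. The medians of all probes in these 3 contrasts were then -1.26, 0.82 and -0.47. Above them lay 7, 1 and 5 of the 8 members, the same counts as with the main scaling. Normexp gave a median of -0.23 for the cord against the liver label. Against the cord label, skeletal muscle reversed with spike-in scaling for VWF (-0.27), CDH5 (-0.54), TEK (-0.36) and TIE1 (-0.67), and against the liver label for TIE1 (-0.11). The causes were not tested. The ABW and LBW groups hold different neonates, so their replicate numbers could not pair animals. After subtracting group means, same-numbered arrays of the 2 groups correlated by -0.17 to 0.13 in skeletal muscle. Under the liver label they did so by 0.02 to 0.17, and under the cord label by -0.22 to 0.30. Whether a number marks the same animal under different tissue labels was not tested. With the replicate block CDH5 on the cord-labelled arrays had an adjusted p of 0.666 and VWF in skeletal muscle 0.420. The small number of arrays limits the precision, and the FLT1 difference between the cord and the liver label lost its call with another background correction of this dim probe.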
